A study of Mus musculus with 10 samples.

Results

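Plantaris muscle of male C57BL/6 mice was overloaded by synergist ablation, in which the muscles that share its work are removed, and RNA was profiled after 10 d and after 3 d of overload while platelet-derived growth factor (PDGF) signalling was blocked with an inhibitor. The comparison holds the 2 pools labelled as 10 d of treatment and the 2 pools labelled as 3 d of treatment, 4 of the 10 pools of the series, and it asks how the response to overload progresses under the inhibitor. The groups used were 10 d of overload with inhibitor, 3 d of overload with inhibitor, 10 d of overload without it, 3 d of overload without it, and muscle with no overload. Each group had 2 pools, and each pool was equal amounts of RNA from 4 muscles. All groups share strain, sex and muscle, and no genetic change is given. The sources used here give neither the name and dose of the inhibitor nor the age of the mice. Days of overload and days of inhibitor run together in these 4 pools, so their effects cannot be told apart.

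PDGF ligands are secreted dimers that bind a pair of receptor tyrosine kinases, the alpha receptor of fibroblasts and of the mesenchymal progenitors of muscle and the beta receptor of pericytes and smooth muscle. Receptor activation feeds the ERK pathway and, through it, immediate early transcription factors, cell division and matrix synthesis. A plantaris under sudden load passes through an early phase of mechanical stress signalling, invasion by monocytes and division of satellite cells and stromal cells, followed by growth and maturation of the fibres.

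RNA was measured on 10 Affymetrix Mouse Gene 2.1 ST arrays, and values are normalised log2 intensities, so a difference of 1 is a doubling. After keeping probe sets with 1 gene symbol and the brightest probe set of each gene, 22180 genes remained. The median of each array over all probe sets lay between 2.4 and 2.45. Across genes, the 10 d pools correlated with each other at r = 0.992, the 3 d pools at r = 0.991, and 10 d with 3 d pools at r between 0.981 and 0.985. The tissue was muscle by its defining genes: Actn3, the alpha-actinin of fast fibres, read 12.13 and 12.16 in the 10 d pools and 11.65 and 11.54 in the 3 d pools. Every difference below is 10 d minus 3 d with its standard error, from a limma fit over all 10 arrays, and a gene is said to have risen or fallen where its Benjamini-Hochberg adjusted p over all 22180 genes was under 0.05. The labels do not say that the 2 pools of a group came from separate animals, so these p-values measure only the spread between pools, which may be technical.

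Between 10 d and 3 d of inhibited overload the plantaris had less RNA of mitotic, macrophage, immediate early and load-induced genes and more of several genes of mature fibres. The gene lists were chosen with earlier results of these data known, so they describe these pools and are no independent test. At 10 d, 440 genes were higher (1.98% of those tested) and 591 were lower (2.66%), together 4.65%, and 170 of the rises and 319 of the falls were at least 2-fold. The 2 and 2 pools did not overlap in any of the 1031 called genes, but they also did not overlap in 49.7% of all genes (22.9% higher and 26.8% lower at 10 d). The median difference over all genes was -0.03, and the median standard error was 0.189. The called genes numbered 129 without 10 d pool 2, 212 without 10 d pool 1, 123 without 3 d pool 1 and 319 without 3 d pool 2, since each omission leaves that time with 1 pool. Set against the same 2 unloaded pools, 250 genes were higher and 95 lower at 10 d (1.13% and 0.428%, together 1.56%), against 1711 higher and 1443 lower at 3 d (7.71% and 6.51%, together 14.2%). These 345 and 3154 genes became 31 to 117 and 1343 to 1932 when a pool of either group compared was left out, with the fewest without 10 d pool 1 and without 3 d pool 1.

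The 12 largest rises included genes of the fibre surface and of its metabolism. Ky, a protein of the sarcomere whose loss causes muscle degeneration in mice, read 7.61 and 7.99 in the 10 d pools and 4.44 and 5.10 in the 3 d pools, and it rose by 3.03 ± 0.31 (adjusted p = 0.00371). Both unloaded pools, at 8.04 and 8.15, were slightly above the 10 d pools, and the 3 d pools were far below either. Aqp4, the water channel of the fast fibre membrane, read 6.08 and 6.29 at 10 d and 3.47 and 3.75 at 3 d, a rise of 2.57 ± 0.24 (adjusted p = 0.00278). The unloaded pools, at 6.28 and 6.14, lay in the range of the 10 d pools. Gdap1, an outer mitochondrial membrane protein mutated in inherited neuropathy, read 6.13 and 6.35 at 10 d and 4.03 and 4.16 at 3 d, a rise of 2.14 ± 0.15 (adjusted p = 0.00136). Its 10 d pools were still below both unloaded pools, at 7.55 and 7.28, and so were those of Klhl33, a Kelch-like family member, which read 5.79 and 6.71 at 10 d, 3.88 and 3.77 at 3 d and 7.96 and 7.99 with no overload (rise 2.43 ± 0.26, adjusted p = 0.00421). 

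Kcne1l, an accessory subunit of potassium channels, did not follow that order. It read 6.35 and 5.70 in the 10 d pools, 3.12 and 2.99 in the 3 d pools and 1.93 and 2.43 in the unloaded pools, so the 3 groups were separate and the 10 d pools were the highest. Its rise was 2.97 ± 0.27 (adjusted p = 0.00278), and at 10 d it was 3.85 above no overload (adjusted p = 0.00102). Apol11b, of the apolipoprotein L family, read 6.26 and 4.78 at 10 d and 2.79 and 3.48 at 3 d, with 2.83 and 3.73 in unloaded muscle. It rose by 2.39 ± 0.48 (adjusted p = 0.0301), and its value ran from 1.65 without 10 d pool 1 to 3.13 without 10 d pool 2. Dbp, a transcription factor driven by the circadian clock, read 8.87 and 8.88 at 10 d and 6.51 and 6.94 at 3 d and rose by 2.15 ± 0.24 (adjusted p = 0.00463). Lrp2bp had the largest rise, at 3.04 (adjusted p = 0.00791). Its 10 d pools, at 6.03 and 6.10, were also above the unloaded pools, at 5.07 and 4.39. The remaining rises were Cyp4f39 of the cytochrome P450 family at 2.82 (adjusted p = 0.0135), the phosphatase Dupd1 at 2.70 (adjusted p = 0.0387), and Pfkfb3 and Gpd1, which are described with glycolysis. The 10 d pools of Cyp4f39 and Dupd1 overlapped with the unloaded pools. Without 1 of the 4 inhibitor pools the call was lost for Apol11b (10 d pool 1 and either 3 d pool, adjusted p up to 0.181), Lrp2bp (either 10 d pool and 3 d pool 1, up to 0.0704) and Cyp4f39 (10 d pool 2 and either 3 d pool, up to 0.0941, at 2.21 to 3.42). The call of Dupd1 was lost without 10 d pool 1 or either 3 d pool, and also without any uninhibited 10 d pool or unloaded pool, with adjusted p up to 0.160 and values of 1.83 to 3.57.

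The largest fall was that of Sprr1a, whose proline-rich product is best known from the skin barrier and from stressed heart and injured nerve. It read 2.12 and 2.58 in the 10 d pools and 7.57 and 7.55 in the 3 d pools, a fall of 5.21 ± 0.33 on the log2 scale (adjusted p = 0.00135). The 10 d values lie around the array median and there are no detection calls, so that size is open to background. The unloaded pools, at 0.73 and 0.79, were lower than both times. Cd68, a lysosomal glycoprotein of macrophages, read 6.84 and 6.79 at 10 d and 9.99 and 9.96 at 3 d, an 8.95-fold fall (log2 difference -3.16 ± 0.20, adjusted p = 0.00135). The unloaded pools read 4.96 and 5.28, and at 10 d Cd68 was still 1.69 above them (adjusted p = 0.00729). Tnc, tenascin C, a matrix glycoprotein of injured and loaded tissue, read 6.00 and 6.08 at 10 d and 8.90 and 9.11 at 3 d, with 4.48 and 4.59 in unloaded muscle, and it fell by 2.96 ± 0.32 (adjusted p = 0.00443).

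Several other large falls ended near the level of unloaded muscle. Psat1, an enzyme of serine synthesis, read 1.99 and 2.29 at 10 d, 5.10 and 5.07 at 3 d and 2.0 and 1.83 with no overload, and it fell by 2.94 ± 0.22 (adjusted p = 0.00162). Adam8, a metalloprotease of leukocytes, read 2.88 and 2.61 at 10 d, 5.56 and 5.29 at 3 d and 3.14 and 2.87 with no overload (fall of 2.68 ± 0.26, adjusted p = 0.00301). In both genes the 10 d pools overlapped with the unloaded pools and the 3 d pools stood apart. Gas2l3, a linker of actin and microtubules, read 4.50 and 4.08 at 10 d and 6.75 and 6.88 at 3 d and fell by 2.52 ± 0.17 (adjusted p = 0.00135). Mmp10, a matrix metalloprotease, fell by 2.94 ± 0.34 (adjusted p = 0.00496), and Card14, a scaffold of NF-kappaB signalling, by 2.69 ± 0.31 (adjusted p = 0.00527). Cgref1, a growth regulator with calcium-binding hands, fell by 3.28 ± 0.56 (adjusted p = 0.0179). Both of its 10 d pools, at 3.29 and 3.12, stayed above the unloaded pools, at 2.16 and 1.63. Rrad, a small GTPase that restrains calcium channels, fell by 2.64 ± 0.44 (adjusted p = 0.0172). Its pools read 5.83 and 5.23 at 10 d and 4.19 and 5.79 with no overload. The calls of Cgref1 and Rrad were lost without any 1 of the 4 inhibitor pools (adjusted p up to 0.114 and 0.118).

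**Figure D1:**
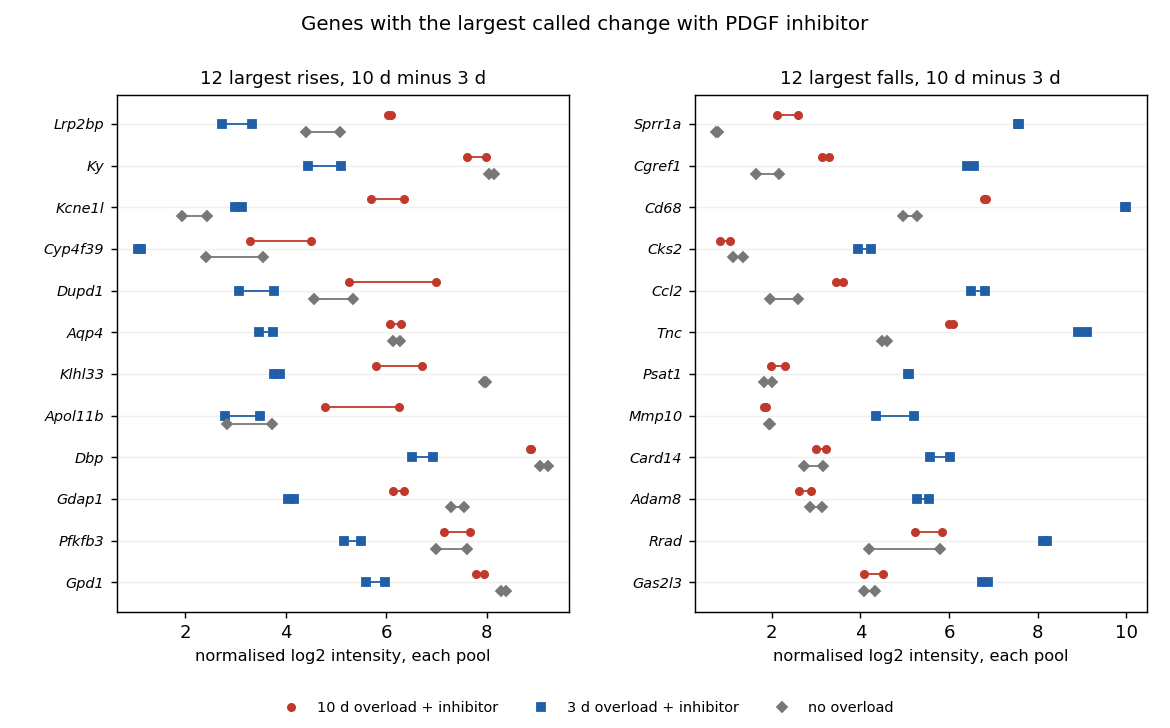
Normalised log2 intensity (horizontal axis) of the 12 genes with the largest rise (left panel) and the 12 with the largest fall (right panel) between 10 d and 3 d of overload with inhibitor. Each marker is 1 pool, lines join the 2 pools of a group, circles are 10 d with inhibitor, squares 3 d with inhibitor and diamonds no overload; Ky and Aqp4 at 10 d sit beside no overload, while Kcne1l at 10 d (6.35 and 5.70) is above both other groups.

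Genes of mitosis were lower as a group at 10 d. Of 24 measured genes of this list, 13 fell and none rose, against 2.66% of all genes falling, and the median of the list was -1.15, against -0.03 over all genes. The pools of the 2 times were separate and lower at 10 d in 22 of the 24, against 26.8% of all genes. Plk1, the kinase that drives entry into and exit from mitosis, read 2.27 and 2.09 in the 10 d pools and 4.80 and 4.40 in the 3 d pools, and it fell by 2.42 ± 0.30 (adjusted p = 0.00618). Its unloaded pools, at 1.51 and 2.37, span the 10 d values. Top2a, the topoisomerase that untangles chromosomes, read 3.25 and 2.83 at 10 d, 5.33 and 5.49 at 3 d and 2.41 and 2.71 with no overload, and it fell by 2.38 ± 0.19 (adjusted p = 0.00205). Cks2, a binding partner of cyclin-dependent kinases outside this list, read 0.82 and 1.06 at 10 d and 4.25 and 3.95 at 3 d. It fell by 3.16 ± 0.23 (adjusted p = 0.00146). Of its 3 other probe sets, 1 differed by -0.86 and 2 by the same -3.16, and whether those 2 are separate measurements was not checked. The 10 d and unloaded pools of Cks2 were below the array median, the unloaded at 1.35 and 1.14. With no detection calls, the size of its fall is open to background.

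Prc1, which bundles microtubules between the separating chromosomes, read 3.25 and 3.16 at 10 d and 5.44 and 5.21 at 3 d and fell by 2.12 ± 0.19 (adjusted p = 0.00254). Ccnb2, a mitotic cyclin, read 4.19 and 3.62 at 10 d, 5.91 and 5.86 at 3 d and 2.47 and 2.52 with no overload, a fall of 1.98 ± 0.20 (adjusted p = 0.00371). In both genes all 10 d pools were above the unloaded pools and below the 3 d pools. Cenpe, Mki67, Tpx2, Ccna2, Kif23, Ncaph, Cdc20, Cenpf and Kif11 also fell, by 0.88 to 1.81 on the log2 scale. Cdk1, the kinase partner of the mitotic cyclins, read 2.23 and 2.71 at 10 d and 3.21 and 2.95 at 3 d and did not pass (adjusted p = 0.206). Between 6 and 9 of the 24 genes fell when 1 of the 4 inhibitor pools was left out, with 6 without 3 d pool 1 and 8 without 10 d pool 2, and the call of Plk1 was lost in both of those cases (adjusted p up to 0.0588). Against the same unloaded pools, 5 of the 24 genes were higher at 10 d and 21 were higher at 3 d, against 1.13% and 7.71% of all genes. In RNA of whole muscle, fewer cells of a type and less RNA per cell cannot be told apart.

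The promoters of these genes are shown because the genes moved together and because many mitotic genes carry a cell-cycle element and a CCAAT box just before their start. RefSeq (GRCm38.p6) gave a promoter for 20 of the 24 genes, and the 250 bases before each start were searched for TTTGAA and CCAAT on both strands. Each window below is the 150 bases up to the start, written 5′ to 3′ on the strand of the gene, and capitals mark TTTGAA or its complement TTCAAA and CCAAT or its complement ATTGG; no match overlapped another. The windows are chr11:99024190-99024339 on the minus strand for Top2a, chr7:135716380-135716529 on the minus strand for Mki67, chr4:118437344-118437493 on the minus strand for Cdc20, chr19:37376232-37376381 on the plus strand for Kif11 and chr7:122159285-122159434 on the plus strand for Plk1. 
Top2a: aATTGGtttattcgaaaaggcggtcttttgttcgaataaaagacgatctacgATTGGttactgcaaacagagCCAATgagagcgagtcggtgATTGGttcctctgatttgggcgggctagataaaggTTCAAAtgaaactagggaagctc
Mki67: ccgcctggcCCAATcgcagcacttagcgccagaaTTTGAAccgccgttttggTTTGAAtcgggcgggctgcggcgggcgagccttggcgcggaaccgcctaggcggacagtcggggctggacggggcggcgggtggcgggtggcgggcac
Cdc20: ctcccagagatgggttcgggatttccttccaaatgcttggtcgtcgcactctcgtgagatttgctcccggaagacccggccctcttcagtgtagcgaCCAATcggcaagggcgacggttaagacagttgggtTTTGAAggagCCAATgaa
Kif11: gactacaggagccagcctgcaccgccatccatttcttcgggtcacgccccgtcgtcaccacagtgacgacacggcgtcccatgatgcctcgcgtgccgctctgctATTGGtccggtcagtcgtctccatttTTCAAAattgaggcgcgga
Plk1: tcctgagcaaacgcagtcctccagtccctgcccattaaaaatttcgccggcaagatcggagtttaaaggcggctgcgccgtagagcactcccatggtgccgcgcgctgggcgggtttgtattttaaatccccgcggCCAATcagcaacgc

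In Cdc20 the TTTGAA begins 18 bases before the start and in Kif11 its complement begins 19 bases before it, while Plk1 holds 1 CCAAT, 14 bases before the start, and no TTTGAA in the 250 bases. Among the 20 promoters CCAAT was found in 16 (80.0%) and TTTGAA in 7 (35.0%), and among the 11 whose gene fell, in 10 (90.9%) and 5 (45.5%). Over all 27025 promoters of the same length the shares were 34.2% for CCAAT and 16.3% for TTTGAA. A match is a string of letters and was not tested as a binding site.

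DNA replication genes moved less than the mitotic ones. Of 25 measured genes 6 fell and none rose, against 2.66% and 1.98% of all genes, with a list median of -0.52. Rrm2, the regulated subunit of the enzyme that makes deoxynucleotides, read 2.74 and 2.96 at 10 d and 4.52 and 4.49 at 3 d and fell by 1.66 ± 0.31 (adjusted p = 0.0235), although its other probe set differed by -0.10. E2f1, the transcription factor of the entry into S phase, read 2.31 and 1.86 at 10 d, 3.51 and 3.03 at 3 d and 2.57 and 2.86 in unloaded muscle, a fall of 1.18 ± 0.21 (adjusted p = 0.0206) that left both 10 d pools below the unloaded ones. Mcm5, a subunit of the replicative helicase, fell by 1.09 ± 0.19 (adjusted p = 0.0201), Uhrf1, which copies DNA methylation, by 1.15 ± 0.25 (adjusted p = 0.0385), and the helicase subunits Mcm3 and Mcm6 fell too. Calls in this list rested on every pool, since 0 to 2 genes fell with 1 inhibitor pool left out: Rrm2 and Mcm5 were lost without any 1 of the 4 (adjusted p up to 0.130 and 0.115), E2f1 without 10 d pool 2 or 3 d pool 1 (up to 0.133), and Uhrf1 in every omission except that of 10 d pool 1 (up to 0.207).

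Macrophage genes were lower at 10 d, with separate pools in all 20 measured markers, against 26.8% of all genes that were separate and lower. Of the 20, 7 fell and none rose, against 2.66% and 1.98% of all genes, and the median was -1.06. Beside Cd68, Fcgr1, the high-affinity receptor for immunoglobulin G, read 4.39 and 4.15 in the 10 d pools, 6.00 and 5.97 in the 3 d pools and 2.67 and 2.88 with no overload, a fall of 1.71 ± 0.19 (adjusted p = 0.00459). Itgam, the CD11b integrin of monocytes, macrophages and neutrophils, read 5.26 and 5.17 at 10 d, 6.70 and 6.63 at 3 d and 3.55 and 3.27 with no overload, and it fell by 1.45 ± 0.18 (adjusted p = 0.00593). In both genes the 3 groups were separate and the 10 d pools lay in the middle. Msr1, a scavenger receptor, fell by 1.51 ± 0.29 (adjusted p = 0.0256), and Ccr2, the receptor for Ccl2 on inflammatory monocytes, Lyz2 and Fcer1g fell as well. Genes of resident macrophages were lower by values that did not pass, with Mrc1 at -1.04 (adjusted p = 0.0504) and Cd163 at -0.66 (adjusted p = 0.150). Against the same unloaded pools, 8 of the 20 were higher at 10 d and 18 at 3 d, against 1.13% and 7.71% of all genes. Of the 20, 2 to 4 fell after 1 inhibitor pool was left out (2 without 10 d pool 2 or 3 d pool 1), Msr1 was lost without any 1 of the 4 (adjusted p up to 0.157) and Itgam without 10 d pool 2 or 3 d pool 1 (up to 0.0547).

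Of 18 genes of the phagocyte lysosome 5 fell, against 2.66% of all genes, with a median of -0.37. Gpnmb, a glycoprotein of lipid-laden macrophages, read 5.41 and 5.44 at 10 d, 7.86 and 7.43 at 3 d and 4.21 and 4.64 with no overload, a fall of 2.21 ± 0.34 (adjusted p = 0.0124). Trem2, a lipid-sensing receptor of phagocytes, read 3.36 and 2.88 at 10 d and 4.99 and 4.96 at 3 d and fell by 1.85 ± 0.30 (adjusted p = 0.0146). The proteases Ctss and Lgmn fell by 1.85 ± 0.33 and 1.12 ± 0.17 (adjusted p = 0.0200 and 0.0134), and Cd63, a tetraspanin, fell by 0.92. These calls rested on single pools: Trem2 and Ctss were lost without any 1 of the 4 inhibitor pools (adjusted p up to 0.106 and 0.129), and Gpnmb and Lgmn without either 10 d pool or 3 d pool 1 (up to 0.0982 and 0.0988), so that 0 to 2 of the list fell.

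Chemokines that draw monocytes were among the falls. Ccl2 read 3.44 and 3.61 at 10 d, 6.50 and 6.81 at 3 d and 1.97 and 2.58 with no overload, and it fell by 3.13 ± 0.62 (adjusted p = 0.0293). Ccl7, its neighbour in function, read 4.10 and 3.86 at 10 d, 6.43 and 6.02 at 3 d and 2.83 and 2.28 with no overload, a fall of 2.24 ± 0.27 (adjusted p = 0.00569). The 10 d pools of both lay between the 3 d and the unloaded pools without overlap. Cxcl5, which draws neutrophils, fell by 1.96 ± 0.26 (adjusted p = 0.00785), Ccl6 by 1.89 ± 0.25 (adjusted p = 0.00735), and Ccl9 and Il6 by 1.46 and 0.84. Of the 23 chemokines and cytokines 6 fell, against 2.66% of all genes, and the other 17 did not pass, with a list median of -0.40. C3ar1, the receptor for the complement fragment C3a, was the 1 of 9 complement genes to fall, by 1.77 ± 0.24 (adjusted p = 0.00767). With 1 inhibitor pool left out, 0 to 3 of the 23 fell (0 without 3 d pool 1): Ccl2 was lost without any 1 of the 4 (adjusted p up to 0.139), Ccl7 without 10 d pool 2 or 3 d pool 1 (up to 0.0524), Ccl6 without either 10 d pool or 3 d pool 1 (up to 0.0628), and Cxcl5 and C3ar1 without 10 d pool 1 or 3 d pool 1 (up to 0.0628 and 0.0659).

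Neutrophil markers did not follow the macrophage markers. None of 14 passed in either direction, and their median was 0.37, with 11 of 14 differences positive, against 10332 of 22180 genes. S100a8, an abundant calcium-binding protein of neutrophils, read 4.72 and 4.78 in the 10 d pools, 3.90 and 3.87 in the 3 d pools and 0.98 and 1.19 in the unloaded pools. Its difference of 0.87 had an adjusted p of 0.646, in a fit whose spread is shared with the uninhibited 3 d pools, where S100a8 read 5.45 and 2.05. Both inhibited times were far above unloaded muscle in S100a8. Slc4a1, the anion exchanger of red cells, read 6.16 and 5.15 at 10 d, 2.79 and 2.65 at 3 d and 2.20 and 2.23 with no overload, a difference of 2.94 (adjusted p = 0.106). None of the 6 red cell and platelet markers passed, and their level was highest in 10 d pool 1 (1.47 above each gene's mean, against 0.37 in 10 d pool 2 and 0.29 and 0.52 in the 3 d pools). Elane and Mpo, the granule enzymes that define granulocyte precursors, were at most 1.75 in all inhibitor pools, and all 7 precursor genes missed the threshold. Markers of T and NK cells (12), MHC class II (6), interferon response (14) and keratinocytes (9) held no call. Of 8 B cell markers only Blnk, an adaptor also used in myeloid cells, fell (by 0.84, adjusted p = 0.0375), against 2.66% of all genes. The call of Blnk was lost without any 1 inhibitor pool or either uninhibited 3 d pool. The part of blood in the results was not tested.

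Immediate early genes, which are switched on within minutes of growth factor or mechanical stimulation, were lower at 10 d. Of 20 measured, 8 fell, against 2.66% of all genes, and the median was -1.20. All 20 differences were negative, whereas 10332 of 22180 genes had a positive one. Atf3, a stress-induced transcription factor, read 7.72 and 7.24 in the 10 d pools, 9.94 and 9.76 in the 3 d pools and 5.52 and 5.83 with no overload, and it fell by 2.37 ± 0.27 (adjusted p = 0.00463). At 10 d it was still 1.81 above no overload (adjusted p = 0.0190). Fos, the AP-1 subunit, read 6.36 and 5.57 at 10 d and 8.27 and 8.17 at 3 d, with 5.44 and 5.77 in unloaded muscle, a fall of 2.25 ± 0.39 (adjusted p = 0.0184). Egr1, a zinc finger factor of the ERK response, read 5.31 and 5.04 at 10 d, 7.17 and 7.24 at 3 d and 4.50 and 5.28 with no overload, and it fell by 2.04 ± 0.25 (adjusted p = 0.00569). For Fos and Egr1 the 10 d pools overlapped with the unloaded pools, whereas both 3 d pools were well above. Btg2, an antiproliferative factor, fell by 1.52 ± 0.23 (adjusted p = 0.0113), and Egr2, Junb, Klf6 and Ier3 fell by 1.01 to 1.51.

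Of 13 genes of ERK feedback, which includes phosphatases and Sprouty proteins made in response to the pathway, 2 fell. Of all genes 2.66% fell, and the list median was -0.25. Dusp5, a nuclear ERK phosphatase, read 3.28 and 3.34 at 10 d, 5.43 and 5.34 at 3 d and 3.17 and 2.34 with no overload, a fall of 2.07 ± 0.29 (adjusted p = 0.00823). Phlda1 fell by 1.23 ± 0.17 (adjusted p = 0.00787). Dusp6, a cytoplasmic ERK phosphatase, was at 0.36 (adjusted p = 0.356), and Spry2 was at -0.64 (adjusted p = 0.0542). With 1 inhibitor pool left out, 1 to 4 immediate early and 0 to 2 feedback genes fell (1 and 0 without 10 d pool 2): Egr1 was lost without 10 d pool 2 (adjusted p up to 0.0536), Fos and Btg2 without 10 d pool 2 or either 3 d pool (up to 0.123 and 0.0870), Phlda1 without 10 d pool 2 or 3 d pool 1 (up to 0.0617), Dusp5 also without 10 d pool 1 (up to 0.0687), and Egr2 without any 1 of the 4 or either unloaded pool (up to 0.161).

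Genes induced by load and stress fell in 10 of 16 cases, against 2.66% of all genes, with a median of -1.16. Besides Sprr1a they were Timp1, Hmox1, Hspb1, Mt1, Mt2, Xirp1, Flnc, Csrp3 and Cryab. The list was chosen with earlier results of these data known, so its fall is no independent test. Hspb1, a small heat shock protein that guards the cytoskeleton, read 8.03 and 7.63 in the 10 d pools, 9.47 and 9.37 in the 3 d pools and 6.83 and 6.92 in unloaded muscle, a fall of 1.59 ± 0.17 (adjusted p = 0.00396), and its other probe set differed by -1.28. Timp1, an inhibitor of metalloproteases, read 5.14 and 4.94 at 10 d, 7.21 and 7.50 at 3 d and 2.02 and 3.12 with no overload and fell by 2.31 ± 0.39 (adjusted p = 0.0178). In both genes the 10 d pools lay between the other groups without overlap. Hmox1, which degrades haem, fell by 1.91 ± 0.33 (adjusted p = 0.0196), and Csrp3, a mechanosensor of the Z-disc, by 0.85 ± 0.13 (adjusted p = 0.0135). Against the same unloaded pools, 7 of the 16 were higher at 10 d and 14 at 3 d, against 1.13% and 7.71% of all genes. Of the 16, 2 to 6 fell after any 1 inhibitor pool was left out (2 without 10 d pool 2): Timp1 was lost without any 1 of the 4 (adjusted p up to 0.115), Hmox1 without either 10 d pool or 3 d pool 1 (up to 0.130) and Csrp3 without 10 d pool 2 or either 3 d pool (up to 0.103).

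**Figure D2:**
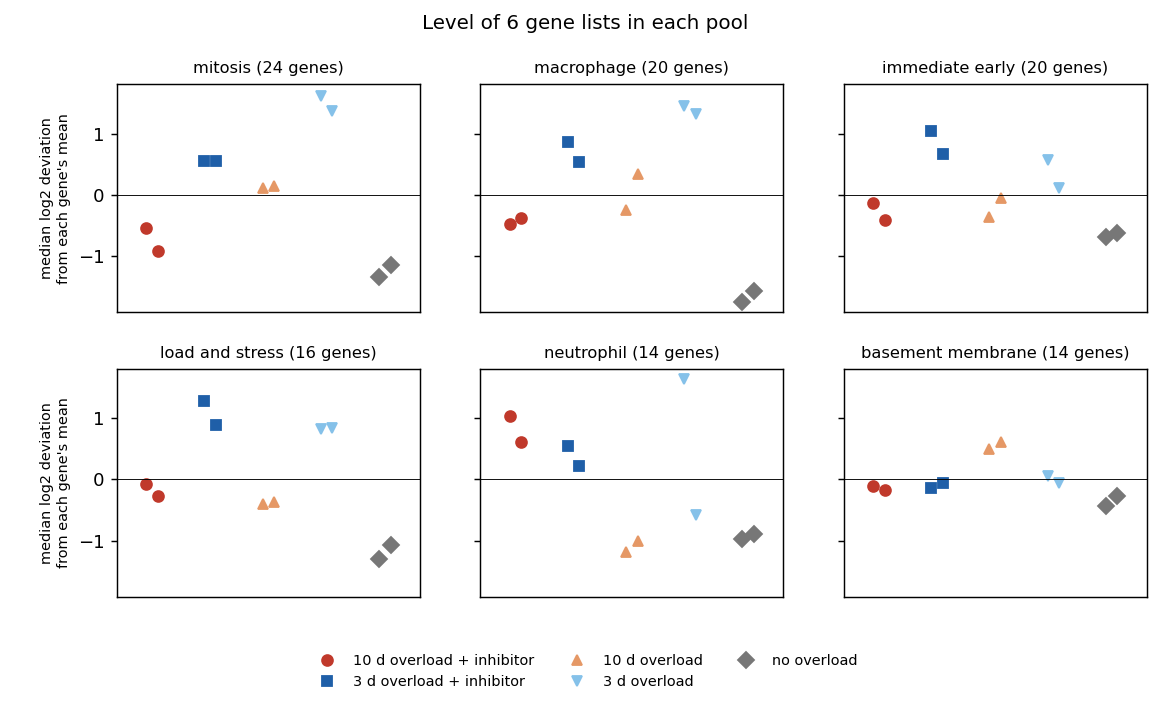
Level of 6 gene lists in each pool, as the median over the list of each gene's log2 deviation from its own mean over the 10 arrays (vertical axis); from left to right the groups are 10 d with inhibitor, 3 d with inhibitor, 10 d, 3 d and no overload, with 2 pools each. Mitosis, macrophage, immediate early and load genes are lower at 10 d than at 3 d with inhibitor, whereas neutrophil genes are not, and 1 of the uninhibited 3 d pools carries the neutrophil level of 1.64.

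Genes of protein folding in the secretory pathway fell in 7 of 19 cases, against 2.66% of all genes, with a median of -0.46. Xbp1, the transcription factor of the unfolded protein response, read 6.75 and 6.78 at 10 d, 7.83 and 7.72 at 3 d and 6.82 and 6.87 with no overload, a fall of 1.01 ± 0.12 (adjusted p = 0.00569) that brought it to the unloaded level. The chaperone Hspa5 fell by 0.94 ± 0.16 (adjusted p = 0.0163), Pdia6 by 0.87 ± 0.18 (adjusted p = 0.0333) and Creld2 by 0.80 ± 0.16 (adjusted p = 0.0291), and Atf4, Hsp90b1 and Pdia3 fell by 0.71 to 0.75. Ribosome biogenesis factors fell in 5 of 19 cases, with a median of -0.52: Rrp12 by 0.90 ± 0.17 (adjusted p = 0.0253), Gnl3 by 0.76 ± 0.14 (adjusted p = 0.0259), Ddx21 by 0.66 ± 0.12 (adjusted p = 0.0249), Noc2l by 0.64 ± 0.13 (adjusted p = 0.0314) and Nip7 by 0.63. For Ddx21 a second probe set differed by 0.39, and the mean of its probe sets gave -0.13 (adjusted p = 0.750). With 1 inhibitor pool left out, 0 or 1 folding gene and 0 ribosome genes fell: Xbp1 was lost without 3 d pool 1 (adjusted p = 0.0511), and Hspa5, Creld2, Pdia6, Rrp12, Gnl3, Ddx21 and Noc2l without any 1 of the 4 (adjusted p up to 0.115, 0.161, 0.191, 0.131, 0.148, 0.155 and 0.169), Pdia6 and Noc2l also without either unloaded pool and Noc2l without either uninhibited 3 d pool.

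Amino acid supply genes fell in 4 of 13 cases and 1 rose, against 2.66% and 1.98% of all genes, with a median of -0.42. Slc38a2, an amino acid transporter induced by shortage, read 9.06 and 9.05 at 10 d, 10.40 and 10.51 at 3 d and 9.36 and 9.33 in unloaded muscle, and it fell by 1.40 ± 0.12 (adjusted p = 0.00267) to below the unloaded pools. Beside Psat1, Mthfd2, a mitochondrial enzyme of one-carbon metabolism, fell by 1.85 ± 0.32 (adjusted p = 0.0200) and Aldh18a1, of proline synthesis, by 0.88 ± 0.19 (adjusted p = 0.0422). The next enzyme of serine synthesis after Psat1, Psph, moved the other way, with a rise of 0.69 (adjusted p = 0.0476). Mthfd2 read 5.80 and 4.59 in the 10 d pools, so its fall was 1.25 without 10 d pool 2 and 2.46 without 10 d pool 1, and its call was lost without either 3 d pool (adjusted p up to 0.129). Aldh18a1 was lost without any 1 inhibitor pool, uninhibited 3 d pool or unloaded pool (up to 0.194), and between 2 and 3 of the list fell, and none rose, with 1 inhibitor pool left out.

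None of the 6 genes of PDGF ligands and receptors passed, and their median was -0.03, which does not show that they were unchanged. Pdgfra, the alpha receptor, read 7.45 and 7.66 in the 10 d pools and 7.64 and 7.66 in the 3 d pools, a difference of -0.09 ± 0.16 (adjusted p = 0.830). Pdgfrb, the beta receptor, read 7.46 and 7.41 at 10 d and 7.62 and 7.58 at 3 d, a difference of -0.16 ± 0.16 (adjusted p = 0.655). The receptor pools overlapped for Pdgfra and were separate by a narrow gap for Pdgfrb. Among the ligands, Pdgfa differed by 0.05 ± 0.15 (adjusted p = 0.893), Pdgfb by 0.03 ± 0.22 (adjusted p = 0.967), Pdgfc by -0.47 ± 0.32 (adjusted p = 0.497) and Pdgfd by 0.33 ± 0.17 (adjusted p = 0.334). The sign turned for Pdgfb without 3 d pool 1 (-0.11) or 10 d pool 1 (-0.22) and for Pdgfra without 10 d pool 1 (0.016).

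Structural matrix genes did not pass at 10 d against 3 d with the inhibitor. Of 21 genes of fibrillar matrix and 14 of basement membrane none passed, with medians of -0.11 and 0.02. Col1a1, the main collagen chain of scar and tendon, read 9.60 and 9.64 at 10 d, 9.43 and 9.32 at 3 d and 8.02 and 7.96 in unloaded muscle, a difference of 0.25 (adjusted p = 0.657). Both inhibited times stood above unloaded muscle in Col1a1. Single genes around the collagens fell. Lox, which crosslinks collagen and elastin, fell by 1.73 ± 0.36 (adjusted p = 0.0336) as 1 of 16 genes of collagen maturation. Tnc was the 1 of 13 matricellular genes to fall. Adam8, Timp1 and Adamts4 (fall of 1.74 ± 0.40, adjusted p = 0.0469) were the 3 of 19 proteases and inhibitors to fall. Over all genes 2.66% fell, and the medians of these 3 lists were -0.10, -0.06 and -0.03. Tgfbi, a matrix protein induced by TGF-beta, read 7.40 and 7.43 at 10 d and 8.57 and 8.53 at 3 d and fell by 1.13 ± 0.22 (adjusted p = 0.0265), and Inhba, an activin subunit, fell by 0.72 ± 0.15 (adjusted p = 0.0310). They were the 2 of 25 TGF-beta and BMP genes to fall, against 2.66% of all genes. Lox, Adamts4, Tgfbi and Inhba were lost without any 1 of the 4 inhibitor pools (adjusted p up to 0.187, 0.245, 0.142 and 0.156), Lox and Adamts4 also without either unloaded pool and Lox without either uninhibited 3 d pool.

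Of 17 fibroblast markers 2 rose, against 1.98% of all genes, and 15 did not pass. The list median was 0.14, with 11 of 17 differences positive. The 2 that rose mark quiescent or adventitial fibroblasts. Clec3b, tetranectin, read 4.45 and 4.10 at 10 d and 3.19 and 2.94 at 3 d and rose by 1.21 ± 0.24 (adjusted p = 0.0293). Its unloaded pools, at 3.54 and 4.25, overlapped with the 10 d pools. Pi16 read 6.54 and 6.48 at 10 d, 5.59 and 5.44 at 3 d and 5.19 and 5.46 with no overload and rose by 1.0 ± 0.17 (adjusted p = 0.0186), so the 10 d pools were the highest. Tendon genes split. Tnmd, tenomodulin of mature tendon cells, read 6.04 and 6.86 at 10 d and 4.83 and 4.29 at 3 d, with 5.89 and 6.00 in unloaded muscle, and rose by 1.89 ± 0.38 (adjusted p = 0.0316). Prg4, lubricin, read 8.94 and 8.75 at 10 d, 10.45 and 10.39 at 3 d and 7.69 and 8.04 with no overload and fell by 1.57 ± 0.17 (adjusted p = 0.00444), while Scx, the transcription factor of tendon progenitors, fell by 1.29 ± 0.20 (adjusted p = 0.0135). Egr1, also a member of this list, was the third of 11 to fall, against 2.66% of all genes falling. Acaca, of fatty acid synthesis, was the 1 of 11 adipocyte genes to rise, by 0.83 ± 0.17 (adjusted p = 0.0323). Clec3b, Pi16, Tnmd and Acaca were lost without any 1 inhibitor pool (adjusted p up to 0.151, 0.105, 0.187 and 0.164), Tnmd also without either uninhibited 3 d pool or unloaded pool, and Scx without 10 d pool 1 or 3 d pool 1 (up to 0.0988).

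Of 15 genes of satellite cells and myoblasts 3 fell and none rose, against 2.66% and 1.98% of all genes. Myog, myogenin, read 5.02 and 4.39 in the 10 d pools, 6.93 and 6.74 in the 3 d pools and 3.62 and 4.02 with no overload, and it fell by 2.13 ± 0.27 (adjusted p = 0.00617). Itga7, the laminin-binding integrin of muscle, read 7.84 and 7.88 at 10 d, 9.03 and 9.07 at 3 d and 6.94 and 7.13 with no overload, a fall of 1.19 ± 0.16 (adjusted p = 0.00813). The 10 d pools of both genes were between the 3 d and the unloaded pools. Myod1 fell by 1.22 ± 0.22 (adjusted p = 0.0206). Mymk, the membrane protein of myoblast fusion, was at -1.09 (adjusted p = 0.0673), and Pax7, the factor of satellite cells, at 0.24 (adjusted p = 0.828). The list median was -0.09, with 6 of 15 differences positive, against 10332 of 22180 genes. Only 0 to 2 fell once 1 inhibitor pool was dropped: Myog was lost without 10 d pool 2 or 3 d pool 1 (adjusted p up to 0.0581), Itga7 also without 10 d pool 1 (up to 0.0647) and Myod1 without any 1 of the 4 (up to 0.137).

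Genes of the developing fibre moved both ways, with 2 of 15 rising and 3 falling, against 1.98% and 2.66% of all genes. Sln, sarcolipin, a small inhibitor of the calcium pump, read 10.60 and 10.10 at 10 d, 8.78 and 8.46 at 3 d and 2.43 and 3.75 in unloaded muscle. It rose by 1.73 ± 0.38 (adjusted p = 0.0421), and at 10 d it stood 7.26 above no overload on the log2 scale (adjusted p = 0.000586). Igf2, a fetal growth factor of muscle regeneration, read 7.04 and 6.98 at 10 d, 5.61 and 5.34 at 3 d and 4.76 and 4.84 with no overload, a rise of 1.53 ± 0.18 (adjusted p = 0.00569). In both genes all 3 groups were separate, with 10 d the highest and no overload the lowest. The falls were Chrng, Csrp3 and Myl6b, the last by 0.85 (adjusted p = 0.0417). The developmental myosins Myh3 and Myh8 were at 0.81 and 1.26 with adjusted p of 0.234 and 0.242, and Myh3 read 7.36 and 8.06 at 10 d, 6.96 and 6.84 at 3 d and 4.49 and 4.55 with no overload. Against the same unloaded pools, 9 of the 15 were higher at 10 d and 12 at 3 d, against 1.13% and 7.71% of all genes. The call of Sln was lost without any 1 inhibitor pool or uninhibited pool (adjusted p up to 0.20).

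At the neuromuscular junction the adult and fetal subunits of the acetylcholine receptor moved in opposite directions. Chrne, the epsilon subunit of the adult receptor, read 6.74 and 6.88 in the 10 d pools, 4.73 and 4.80 in the 3 d pools and 6.29 and 6.66 with no overload, and it rose by 2.05 ± 0.16 (adjusted p = 0.00192). Chrng, the gamma subunit of the fetal receptor, read 2.91 and 2.46 at 10 d, 4.85 and 4.05 at 3 d and 1.97 and 1.74 with no overload, and it fell by 1.77 ± 0.39 (adjusted p = 0.0424). For both subunits the 10 d pools lay nearer to the unloaded pools than the 3 d pools did, without overlapping them. Ache, the esterase that clears acetylcholine, read 5.35 and 5.51 at 10 d, 3.26 and 3.89 at 3 d and 5.50 and 5.33 with no overload and rose by 1.85 ± 0.22 (adjusted p = 0.00567). Musk, the kinase that clusters the receptor, read 8.32 and 8.27 at 10 d, 9.31 and 9.19 at 3 d and 8.88 and 8.72 with no overload, a fall of 0.95 ± 0.13 (adjusted p = 0.00823) to below the unloaded pools. Lrp4, its partner for agrin, rose by 0.76 (adjusted p = 0.0459). In all, 3 of 14 junction genes rose and 2 fell, against 1.98% and 2.66% of all genes, with a median of 0.29. Chrnd, the delta subunit common to both receptor forms, differed by 0.01 (adjusted p = 0.977).

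After 1 inhibitor pool was left out, 1 or 2 junction genes rose and 0 or 1 fell. Chrne kept its call in each of these omissions, Ache lost it without 10 d pool 2 (adjusted p = 0.0504), Musk without either 10 d pool or 3 d pool 1 (up to 0.0704) and Chrng without any 1 inhibitor pool, unloaded pool or uninhibited 3 d pool (up to 0.230). Egr2, which also controls myelination in Schwann cells, was the 1 of 8 Schwann cell and nerve genes to fall, against 2.66% of all genes. It is an immediate early gene as well.

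**Figure D3:**
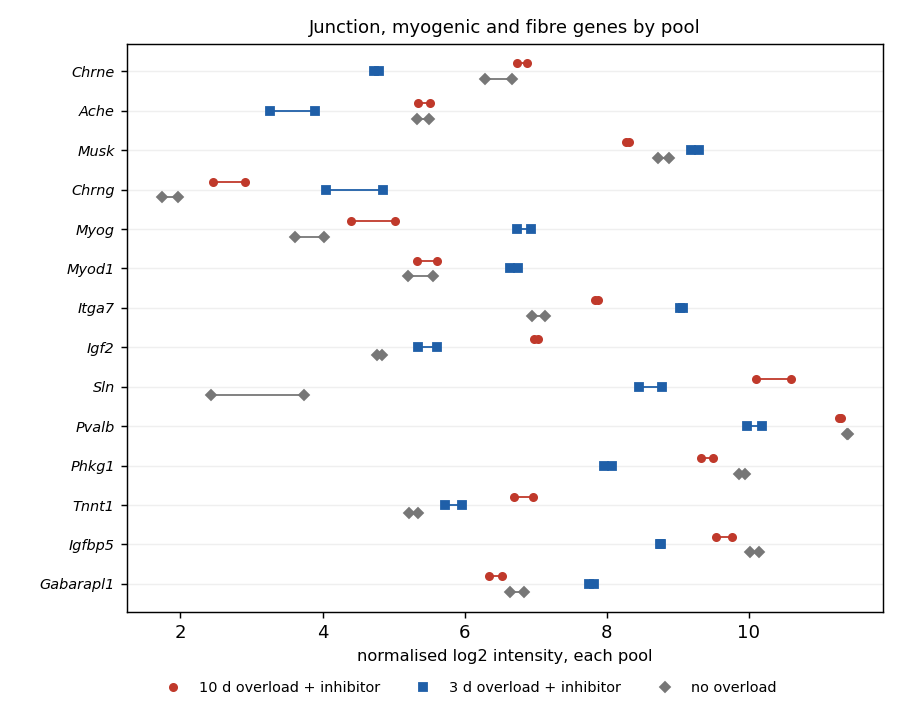
Normalised log2 intensity (horizontal axis) of 14 junction, myogenic and fibre genes; each marker is 1 pool, lines join the 2 pools of a group, and circles are 10 d with inhibitor, squares 3 d with inhibitor and diamonds no overload. Chrne, Ache and Pvalb at 10 d sit near no overload and above 3 d, Sln and Igf2 at 10 d are above both other groups, and Musk and Gabarapl1 at 10 d are below both.

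Of 15 fast fibre genes 3 rose, against 1.98% of all genes, and the median was 0.26. All 15 differences were positive with separate pools, against 22.9% of all genes that were separate and higher. Pvalb, the calcium buffer of fast fibres, read 11.28 and 11.30 at 10 d, 9.97 and 10.19 at 3 d and 11.40 and 11.38 with no overload, a rise of 1.21 ± 0.13 (adjusted p = 0.00443). Mybpc2, fast myosin-binding protein C, rose by 0.82 ± 0.13 (adjusted p = 0.0140) and Actn3 by 0.55 ± 0.12 (adjusted p = 0.0392). The fast myosin Myh4 differed by 0.05 (adjusted p = 0.889). Of 11 slow fibre genes Tnnt1, slow troponin T, rose: it read 6.69 and 6.96 at 10 d, 5.96 and 5.73 at 3 d and 5.34 and 5.22 with no overload (0.98 ± 0.15, adjusted p = 0.0117), and at 10 d it was 1.55 above no overload (adjusted p = 0.00289). The calls of Mybpc2 and Actn3 were lost without any 1 inhibitor pool (adjusted p up to 0.105 and 0.188), that of Actn3 also in every other omission, and that of Tnnt1 without 10 d pool 2 or either 3 d pool (up to 0.0898).

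Lists of energy metabolism differed in how many genes rose. Glycolysis and glycogen genes rose in 5 of 15 cases, against 1.98% of all genes, with a median of 0.43. Gpd1, which passes electrons from glycolysis to mitochondria, read 7.78 and 7.96 at 10 d, 5.6 and 5.97 at 3 d and 8.39 and 8.28 with no overload and rose by 2.08 ± 0.17 (adjusted p = 0.00211), and its other probe set differed by 1.16. Phkg1, the catalytic subunit of the kinase that starts glycogen breakdown, read 9.32 and 9.50 at 10 d, 8.08 and 7.97 at 3 d and 9.95 and 9.86 with no overload, a rise of 1.39 ± 0.15 (adjusted p = 0.00421). Their 10 d pools were above the 3 d pools and just below the unloaded ones. Its regulatory subunit Phka1 rose by 0.89 ± 0.14 (adjusted p = 0.0140), and Pfkm and Tpi1 by 0.67 and 0.58 (adjusted p = 0.0412 and 0.0352). Pfkfb3, which makes the activator of phosphofructokinase and is outside the list, read 7.16 and 7.67 at 10 d and 5.16 and 5.49 at 3 d, with 7.61 and 6.99 in unloaded muscle, and rose by 2.08 ± 0.26 (adjusted p = 0.00614). Against the same unloaded pools, 0 of the 15 glycolysis genes were lower at 10 d and 11 at 3 d, against 0.428% and 6.51% of all genes. Their list median against no overload was -0.29 at 10 d and -0.64 at 3 d.

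In mitochondria the respiratory chain genes were all positive, 27 of 27, against 10332 of 22180 genes, with a median of 0.34. Only Ndufs3 of these, a gene of complex I, rose (0.75, adjusted p = 0.0492), against 1.98% of all genes. Hadhb, of fatty acid oxidation, was the 1 of 22 in its list to rise (0.95 ± 0.21, adjusted p = 0.0406), against the same 1.98%, with a list median of 0.07. None of 16 genes of the citric acid cycle (median 0.34) or of 13 regulators of energy use (median 0.26) passed. Against the same unloaded pools, 0 of 27 respiratory genes were lower at 10 d and 22 at 3 d. In fatty acid oxidation 2 of 22 genes were lower at 10 d and 15 at 3 d. Over all genes 0.428% were lower at 10 d and 6.51% at 3 d. The respiratory median against no overload was -0.36 at 10 d and -0.80 at 3 d. That of fatty acid oxidation was -0.61 at 10 d and -0.73 at 3 d. With 1 inhibitor pool left out 2 or 3 glycolysis genes rose: Pfkm was lost in every omission (adjusted p up to 0.233), Phka1 without either 10 d pool or 3 d pool 1 (up to 0.103) and Pfkfb3 without 10 d pool 2 or 3 d pool 1 (up to 0.0577). Ndufs3 was lost in every omission (up to 0.246) and Hadhb in every omission except those of the uninhibited 3 d pools (up to 0.216).

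Among genes of growth and breakdown, 1 of 18 atrophy and autophagy genes rose and 1 fell, and 2 of 14 IGF genes rose. Over all genes 1.98% rose and 2.66% fell. Gabarapl1, a membrane protein of autophagosomes, read 6.34 and 6.53 at 10 d, 7.76 and 7.82 at 3 d and 6.84 and 6.65 with no overload and fell by 1.36 ± 0.14 (adjusted p = 0.00395), whereas Ulk1, the kinase that starts autophagy, rose by 0.69 ± 0.16 (adjusted p = 0.0488). The other 16 genes of atrophy and autophagy did not pass, among them the ubiquitin ligases Fbxo32 at -0.35 and Trim63 at -0.37 (adjusted p = 0.327 and 0.269). Igfbp5, the main IGF-binding protein of muscle, read 9.77 and 9.54 at 10 d, 8.75 and 8.76 at 3 d and 10.01 and 10.14 with no overload and rose by 0.90 ± 0.16 (adjusted p = 0.0227), and with Igf2 it made up the 2 of 14 IGF genes that rose. Angptl4, a secreted lipase inhibitor, was the 1 of 16 angiogenic factors to fall, by 1.95 ± 0.36 (adjusted p = 0.0232). None of 16 endothelial or 13 pericyte and smooth muscle genes passed, with medians of 0.08 and -0.10. Igfbp5 and Angptl4 were lost without any 1 inhibitor pool (adjusted p up to 0.129 and 0.149), and Ulk1 without those, the unloaded pools or the uninhibited 10 d pools (up to 0.232).

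The same interval without the inhibitor was set against the inhibited one in pools that the 2 comparisons do not share. Both come from the same fit and share each gene's standard error, so their calls are not independent. Without inhibitor 598 genes rose and 750 fell between 10 d and 3 d (2.7% and 3.38%, together 6.08%). Of the 1031 genes called with inhibitor, 989 (95.9%) had the same sign without it, against 64.2% of all genes, and 595 were called in both, which is 57.7% of the inhibited and 44.1% of the uninhibited calls, all with the same sign. The difference between the 2 time courses passed for 0 of 22180 genes in limma (smallest adjusted p = 0.516), while 1434 genes (6.47%) had an unadjusted p under 0.05. The median standard error of that difference was 0.268, against 0.189 for the inhibited interval. In simulated data, with a small set of genes changed in the 10 d inhibitor pools alone, this test recovered 2.26% of 2-fold and 64.0% of 4-fold differences. These rates hold for that setting only. The 0 calls therefore do not show that the time courses were equal. Leaving out 1 pool gave 0 to 14 genes, with 14 without uninhibited 3 d pool 2 and 2 without uninhibited 10 d pool 1.

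**Figure D4:**
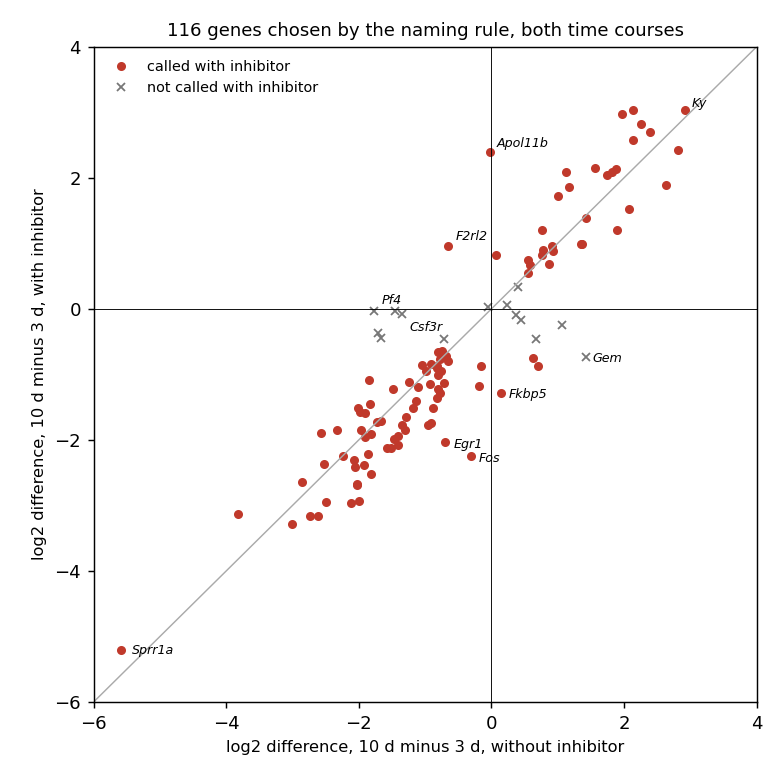
Log2 difference between 10 d and 3 d with inhibitor (vertical axis) against the same without inhibitor (horizontal axis) for the genes chosen by the naming rule, with the line of equal change; circles passed with inhibitor and crosses did not. Sprr1a, at -5.21 with and -5.58 without inhibitor, and Ky, at 3.03 and 2.92, lie near the line, while Fos, Apol11b and Gem lie away from it; no gene's distance from the line passed the test.

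Of the genes named above, Fos and Egr1 had larger falls with inhibitor than without it, in differences that did not pass after adjustment. The fall of Fos with inhibitor was set against -0.30 without it, where the pools read 6.36 and 6.87 at 10 d and 7.49 and 6.34 at 3 d, a difference of -1.95 ± 0.55 (unadjusted p = 0.00651). Egr1 without inhibitor read 5.94 and 5.89 at 10 d and 6.80 and 6.45 at 3 d, and its difference was -1.33 ± 0.35 (unadjusted p = 0.00452). Over all 22180 genes, 11767 differences between the time courses were negative and 6.47% had an unadjusted p under 0.05. Of the 20 immediate early genes 18 had a negative difference and 6 an unadjusted p under 0.05, with a median of -0.57, against -0.02 over all genes. That median was -0.34 without uninhibited 3 d pool 2 and -0.37 without uninhibited 10 d pool 2, and it ran to -0.79 without uninhibited 3 d pool 1. Gem, a small GTPase induced by mitogens, read 3.58 and 3.58 at 10 d and 4.47 and 4.14 at 3 d with inhibitor, against 4.95 and 5.25 at 10 d and 4.06 and 3.29 at 3 d without it, the largest difference among the 12 genes taken by smallest p (-2.15 ± 0.35). Fkbp5, a target of glucocorticoids, fell with inhibitor by 1.28 ± 0.18 (adjusted p = 0.00917), with 4.74 and 4.92 at 10 d and 6.27 and 5.96 at 3 d. Without inhibitor Fkbp5 was at 0.15, with 5.35 and 5.16 at 10 d and 5.27 and 4.95 at 3 d. Apol11b, which rose with inhibitor, was at -0.02 without it, and its difference of 2.41 had an unadjusted p of 0.00658.

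In the basement membrane list 0 of 14 genes passed with the inhibitor, against 4.65% of all genes. Without it 4 of the 14 rose, against 2.7% of all genes. Those 4 became 2 without uninhibited 10 d pool 1 and 0 without any other 1 of the 4 uninhibited overload pools. All 14 differences between the time courses were negative, against 11767 of 22180 genes. Of the 14, 8 had an unadjusted p under 0.05, against 6.47% of all genes, and the medians were 0.02 with inhibitor and 0.54 without it. Col4a1, the main collagen of basement membrane, read 6.29 and 6.03 at 10 d and 6.82 and 6.67 at 3 d with inhibitor, against 7.19 and 7.14 at 10 d and 6.93 and 6.51 at 3 d without it. Its difference was -1.03 (unadjusted p = 0.00258), and that of the laminin chain Lamb1 was -0.96 (unadjusted p = 0.00214). In the fibrillar matrix 20 of 21 differences were negative with a median of -0.49, but 1 had an unadjusted p under 0.05. That median was -0.10 without uninhibited 10 d pool 2 and -0.87 without uninhibited 10 d pool 1. Fatty acid oxidation genes were negative in 21 of 22 cases, against 11767 of 22180 genes. Of the 22, 7 had an unadjusted p under 0.05, against 6.47% of all genes. Their medians were 0.07 with inhibitor and 0.54 without it. Pdgfrb differed by -0.61 ± 0.23 between the time courses (unadjusted p = 0.0256). Adamts3, a procollagen protease, and Prdm8, Trim62 and Mx2 were the other genes taken for a lower course with inhibitor, at -1.14, -1.31, -1.38 and -1.58.

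Genes with a difference of the opposite sign included several of myeloid cells and platelets. The 6 taken by smallest p were not chosen by cell type. Pf4, platelet factor 4, read 5.45 and 5.46 at 10 d and 5.48 and 5.50 at 3 d with inhibitor, against 4.35 and 4.62 at 10 d and 6.47 and 6.04 at 3 d without it, and it had the smallest p of all genes for the difference (1.73 ± 0.25, unadjusted p = 7.93e-05, adjusted p = 0.516). Csf3r, the receptor for granulocyte colony-stimulating factor, read 4.54 and 4.53 at 10 d and 4.54 and 4.69 at 3 d with inhibitor, against 3.29 and 3.31 at 10 d and 4.74 and 4.54 at 3 d without it (1.26 ± 0.19). In both genes the inhibited times overlapped or nearly did, while the uninhibited 10 d pools were low. AB124611, Pilra and Aldh1a2 were at 1.41, 1.33 and 1.23, and F2rl2, a thrombin receptor of platelets, at 1.62: it rose with inhibitor (0.96 ± 0.20, adjusted p = 0.0363) and was at -0.65 without it. All 14 neutrophil differences were positive, whereas 11767 of 22180 genes had a negative one. Of the 14, 7 had an unadjusted p under 0.05, against 6.47% of all genes, and their median was 1.95. That median was 1.0 without uninhibited 3 d pool 1, with 0 genes called, and 2.9 without uninhibited 3 d pool 2, with 6 called. The neutrophil level was 1.64 in uninhibited 3 d pool 1 and -0.58 in pool 2. Elane and Mpo, at 5.21 and 5.02, were high in uninhibited 3 d pool 1, against 1.37 and 1.33 in uninhibited 3 d pool 2. The part of that pool's granulocyte RNA in these values was not tested.

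**Figure D5:**
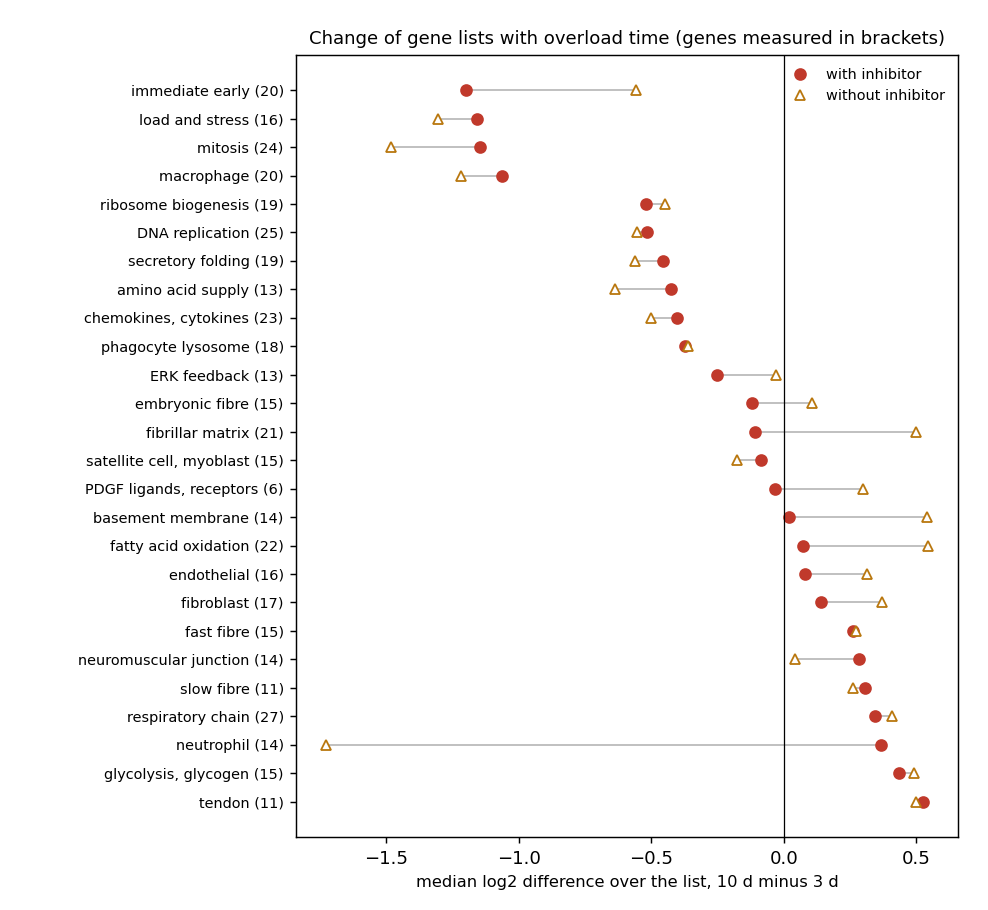
Median log2 difference between 10 d and 3 d over each of 26 gene lists (horizontal axis), ordered by the value with inhibitor; circles are with inhibitor and triangles without. Immediate early, load, mitosis and macrophage lists lie lowest with inhibitor (-1.20, -1.16, -1.15 and -1.06), and the neutrophil list, at 0.37 with and -1.72 without inhibitor, has the widest gap; its value without inhibitor was -0.49 with uninhibited 3 d pool 1 left out and -2.72 with pool 2 left out.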

How the data were processed

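The series matrix holds normalised log2 intensities deposited by the authors. The submitters' processing notes name RMA and the packages oligo and limma, without versions. Per the labels' protocols, equal RNA of 4 muscles was pooled for each array; the labels name more than 1 labelling kit, and the sources used here give no array strip, scan date or clock hour. Probe sets were named from the platform annotation: of 41345, 23521 had 1 symbol, 1814 several and 16010 none listed. Symbols of 21994 genes were found in RefSeq and 0 differed. The brightest probe set stood for each of the 1082 genes with several. limma 3.58.1 in R 4.3.3 fitted 1 coefficient per group over all 10 arrays (5 residual degrees of freedom, prior 3.58), called at a Benjamini-Hochberg adjusted p under 0.05, and was tested on simulated data. Replicate numbers were given in accession order. No detection calls were used, so low values have no floor.

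Named genes were the 12 largest rises and falls among called genes with separate pools, leaving out clone names, receptor families and small RNAs, up to 4 called members of each of 46 lists with the largest change, all PDGF genes, and for the difference between time courses the 6 smallest p in each direction. Other genes named for contrast were chosen after their values were seen. The members and lists were chosen with earlier results of these data known. Alternatives changed the samples fitted, scaling, filter, probe set rule, variance model and array weights.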

Additional observations from a re-analysis of the deposited data

How the results depend on the processing

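With 1031 genes called for 10 d against 3 d under the inhibitor, the count was 349 with only the 4 pools compared, 1700 with dim genes (mean under 2.42) left out and 2010 with a variance trend, and 123 to 972 with 1 pool left out; it stayed between 760 and 1185 under common array medians, quantile scaling, the mean of or all probe sets, robust moderation, array weights and the 8 overloaded pools. The difference between time courses was called in 0 genes and in 0 to 14 with 1 pool left out; neither it nor the comparison with no overload could be fitted on the 4 pools alone. A lone pool left by an omission is assumed to vary like the other groups. Against no overload, 3154 genes at 3 d became 1343 to 3178 with 1 pool left out, and 345 at 10 d became 31 to 486, 700 without dim genes and 1069 with the variance trend. Of 98 named calls, 29 held in every omission, 62 in every other setting, and none reversed. Among genes not called, with 1 inhibitor pool left out Pdgfb turned to -0.11 and -0.22 (range -0.22 to 0.275) and Pdgfra to 0.016 (range -0.197 to 0.016). Of 230 list medians 68 moved beyond the spread between pools and 5 changed sign. No paired analysis was possible because replicate numbers are not given in the labels. The number of arrays limits precision: 2 pools a group leave single calls dependent on 1 pool, and low values carry no background measure.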

Other observations

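Circadian clock genes other than Dbp were looked up after its rise had been seen, and 4 of them passed between 10 d and 3 d with the inhibitor. Per3, a period gene, read 6.80 and 6.80 in the 10 d pools, 4.90 and 5.6 in the 3 d pools and 6.84 and 6.96 with no overload, a rise of 1.54 ± 0.25 (adjusted p = 0.0152). Ciart, a repressor of the clock, read 5.6 and 5.29 at 10 d, 4.03 and 3.59 at 3 d and 6.73 and 6.57 with no overload and rose by 1.64 ± 0.29 (adjusted p = 0.0210). Arntl, the activator at the core of the clock, went the other way, with 6.99 and 6.55 at 10 d, 8.04 and 7.81 at 3 d and 6.21 and 6.31 with no overload, a fall of 1.16 ± 0.24 (adjusted p = 0.0359). In all 3 genes the 10 d pools lay between the 3 d and the unloaded pools or touched the unloaded ones. Nr1d2 rose by 0.77 ± 0.17 (adjusted p = 0.0404).

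The other clock genes looked up did not pass, which does not show that they were unchanged. Nr1d1 was at 0.15, Per1 at -0.53, Cry2 at 0.46, Tef at 0.52 and Npas2 at -1.78, with adjusted p of 0.731, 0.197, 0.104, 0.105 and 0.0816. Npas2 read 3.39 and 3.11 at 10 d and 5.17 and 4.89 at 3 d, so its pools were separate and its difference was larger than those of the 4 genes that passed. Without inhibitor Per3 differed by 1.47, Ciart by 1.29 and Arntl by -1.05 over the same interval. With 1 inhibitor pool left out, the adjusted p of Dbp stayed at 0.0432 or below, while those of Per3, Ciart, Nr1d2 and Arntl reached 0.0960, 0.113, 0.230 and 0.210. The sources used here give no clock hour for taking the muscles, and its part in these values was not tested.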
